A study of Mus musculus with 15 samples.

Results

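The 10 genes described here are receptors of the tumour necrosis factor (TNF) receptor superfamily that T cells can carry: Tnfrsf4, Tnfrsf8, Tnfrsf9, Tnfrsf18, Tnfrsf25, Tnfrsf1a, Tnfrsf1b, Tnfrsf10b, Cd27 and Fas. They were taken by gene name from tables of 56748 genes. All 10 had counts in every library and passed the filter on low counts, among 15619 genes tested. RNA was sequenced in 15 libraries of T helper 2 (Th2) cells, the interleukin 4 dependent helper subset, which were grown from naive CD4+ spleen cells of female mice. Control mice were Asb2fl/fl. Conditional knockout (cKO) mice were VE-cadherin (VEC)-Cre;Asb2fl/fl, so the floxed Asb2 alleles are shared by all groups and Cre by the cKO groups. The VE-cadherin promoter drives Cre in endothelial cells and in blood cell precursors, so it is not confined to T cells. The protein ASB2 selects substrates for an E3 ubiquitin ligase. All cells spent 3 days on plate-bound anti-CD3ε (5 µg/ml) with 10 ng/ml interleukin 2, 40 ng/ml interleukin 4, anti-CD28 (1 µg/ml) and anti-interferon gamma (10 µg/ml), then 3 days in 20 ng/ml of each interleukin with the antibodies removed. The stimulated groups were given coated anti-CD3ε (3 µg/ml) and soluble anti-CD28 (2 µg/ml) at day 5, for 24 h. Control cells gave 3 libraries without and 5 with stimulation, and cKO cells 3 without and 4 with it. Ages, the number of mice and pooling are not given in the sources used here, and the p-values measure the spread between these libraries, which may be technical.

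Receptors of this family bind trimeric ligands of the TNF superfamily on neighbouring cells or in solution. One class signals through TRAF adaptors to NF-kappaB and related kinases and co-stimulates T cells that have met antigen; OX40, GITR, 4-1BB, CD30, CD27 and TNFR2 belong to it. The other class has a cytoplasmic death domain that can recruit TRADD or FADD and start apoptosis or, in other settings, NF-kappaB signalling; Fas, the TRAIL receptor, DR3 and TNFR1 belong to it. In T cells many of these receptors are known to change with activation, and OX40, GITR, 4-1BB and TNFR2 are also known from regulatory T cells.

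The libraries held 17.1 to 24.2 M estimated counts each. Stimulated cKO replicate 3 stood apart, with 9.43% of its counts from mitochondrially encoded genes against 4.36% to 6.24% in the other 14 libraries, so results that rest on it are given with and without it. Asb2 stood at 33.5 CPM (counts relative to the scaled library size) in stimulated control and 9.49 CPM in stimulated cKO libraries (log2 fold change -1.82 ± 0.18 SE, adjusted p = 3.37e-04). Without stimulation the means were 36.7 and 19.2 CPM (log2 fold change -0.94 ± 0.21 SE, unadjusted p = 3.26e-04 in the edgeR test). Every non-stimulated cKO library lay below every non-stimulated control library, but the difference was not called after adjustment over all genes tested (adjusted p = 1). CD4 T and Th2 genes were present in every library: Cd3e lay between 188 and 405 CPM, Cd4 between 342 and 481 CPM, and Gata3 between 545 and 827 CPM. Foxp3, the defining factor of regulatory T cells, lay between 0.983 and 2.16 CPM in all 15 libraries. The list of 6 regulatory T genes that holds Foxp3 summed to between 3763 and 8905 CPM. The erythroid markers Hba-a1, Hbb-bs and Alas2 had no count anywhere, but markers of other cell types did. Their sums reached 28.8 CPM for CD8 T, 23.5 CPM for natural killer and 20.1 CPM for macrophage and monocyte genes. They reached 13.9 CPM for mast cell and basophil, 8.20 CPM for dendritic and 4.84 CPM for B genes. The endothelial sum reached 197 CPM and includes Pecam1, which T cells also carry. The share of other cells in the cultures was not measured. In bulk RNA of this kind, fewer cells carrying a receptor and less of its RNA per cell cannot be told apart.

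Some members of the family are neighbours in the genome. In the annotation of build GRCm38, 6 of the 10 lie on chromosome 4, in the order Tnfrsf1b, Tnfrsf8, Tnfrsf9, Tnfrsf25, Tnfrsf4 and Tnfrsf18. No other protein-coding gene lies between Tnfrsf1b and Tnfrsf8, or between Tnfrsf4 and Tnfrsf18. The rest are farther apart, with 71 protein-coding genes between Tnfrsf8 and Tnfrsf9. There are 14 between Tnfrsf9 and Tnfrsf25 and 68 between Tnfrsf25 and Tnfrsf4. Cd27 and Tnfrsf1a lie on chromosome 6 with 3 protein-coding genes between them, Tuba3a, Ltbr and Scnn1a. Tnfrsf10b is on chromosome 14 and Fas on chromosome 19.

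The RefSeq promoter table of build GRCm38.p6 matched 9 of the 10 receptors, all but Tnfrsf10b, with 11 windows of the 250 bases before a transcript start. The windows of 4 receptors are shown, 5′ to 3′ on the strand of the gene, because 2 of them carry matches to the same pair of motifs while their RNA went opposite ways on stimulation, and the other 2 belong to neighbours that rose together. Capitals mark matches to 3 motifs searched on both strands: the kappaB consensus bound by NF-kappaB, the AP-1 motif TGANTCA, and the string GGAAAA, called the NFAT core here. The shorter string GGAAA was not searched. Tnfrsf8 has the window chr4:145315165-145315414 on the minus strand, Tnfrsf9 the second of its 2 windows, chr4:150927749-150927998 on the plus strand. Tnfrsf4 has chr4:156013445-156013694 and Tnfrsf18 chr4:156026072-156026321, both on the plus strand.
Tnfrsf8: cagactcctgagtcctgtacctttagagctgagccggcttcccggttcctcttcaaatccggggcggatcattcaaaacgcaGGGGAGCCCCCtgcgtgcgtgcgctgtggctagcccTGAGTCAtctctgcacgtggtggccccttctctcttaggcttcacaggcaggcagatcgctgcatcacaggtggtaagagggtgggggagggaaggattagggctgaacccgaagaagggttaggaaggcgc
Tnfrsf9: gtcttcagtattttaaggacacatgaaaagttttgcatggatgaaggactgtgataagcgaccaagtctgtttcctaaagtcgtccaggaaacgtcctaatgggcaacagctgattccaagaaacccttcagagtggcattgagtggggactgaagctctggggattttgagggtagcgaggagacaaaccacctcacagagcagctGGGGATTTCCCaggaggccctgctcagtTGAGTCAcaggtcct
Tnfrsf4: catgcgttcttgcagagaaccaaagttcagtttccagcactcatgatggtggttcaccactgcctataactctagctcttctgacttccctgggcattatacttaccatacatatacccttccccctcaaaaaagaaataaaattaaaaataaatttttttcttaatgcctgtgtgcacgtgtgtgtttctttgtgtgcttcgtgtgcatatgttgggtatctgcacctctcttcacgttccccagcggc
Tnfrsf18: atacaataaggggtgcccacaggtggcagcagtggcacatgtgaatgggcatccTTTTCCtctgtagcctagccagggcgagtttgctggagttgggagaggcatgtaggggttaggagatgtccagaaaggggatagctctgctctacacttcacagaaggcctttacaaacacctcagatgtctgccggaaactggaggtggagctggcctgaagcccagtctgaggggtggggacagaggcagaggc

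In the Tnfrsf8 window, 2 overlapping kappaB matches spanned bases 168 to 158 before the start, and an AP-1 match spanned bases 132 to 126. The Tnfrsf9 window also held 2 overlapping kappaB matches, at bases 43 to 33, and an AP-1 match at bases 15 to 9. The AP-1 match has the same letters, TGAGTCA, in both. The first Tnfrsf9 window, not shown, held an NFAT core on the minus strand at bases 138 to 133. It held no kappaB or AP-1 match, so the likeness to Tnfrsf8 rests on the second window. The Tnfrsf18 window held an NFAT core on the minus strand at bases 196 to 191, and the Tnfrsf4 window held none of the 3 motifs in the form searched. Over the 11 windows, 3 held a kappaB match, 3 an AP-1 match and 4 an NFAT core, where 7.25%, 6.75% and 20.4% of the 32851 windows of this length in the whole table did. A match describes the letters in these windows and no binding was measured.

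Stimulation changed most of the 10 receptors, and in opposite directions. In control cells 7 of 10 were called (adjusted p under 0.05 in edgeR's quasi-likelihood test, adjusted over all genes tested), 5 higher and 2 lower. Of all genes tested 50.6% were called, 25.4% higher and 25.2% lower. In cKO cells 8 of 10 were called, 6 higher and 2 lower, with 53.8% of all genes called, 26.7% higher and 27.1% lower. At an unadjusted p under 0.05 the counts were 9 of 10 in control cells, against 55.9% of all genes, and 8 of 10 in cKO cells, against 59%. The counts of receptors are to be read against this broad change of the transcriptome. Their median log2 fold change was 0.57 in control and 0.66 in cKO cells, beside 0.0023 and -0.0087 over all genes. CPM did not overlap between stimulated and non-stimulated libraries for 8 of 10 receptors in control cells, against 47.9% of all genes, and for 7 of 10 in cKO cells, against 54.1%. Leaving out single libraries left 5 to 8 receptors called in control cells, with 5 when non-stimulated control replicate 1 or 2 was left out, and 6 to 8 in cKO cells, with 6 when stimulated cKO replicate 3 or non-stimulated cKO replicate 2 was left out.

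**Figure D1:**
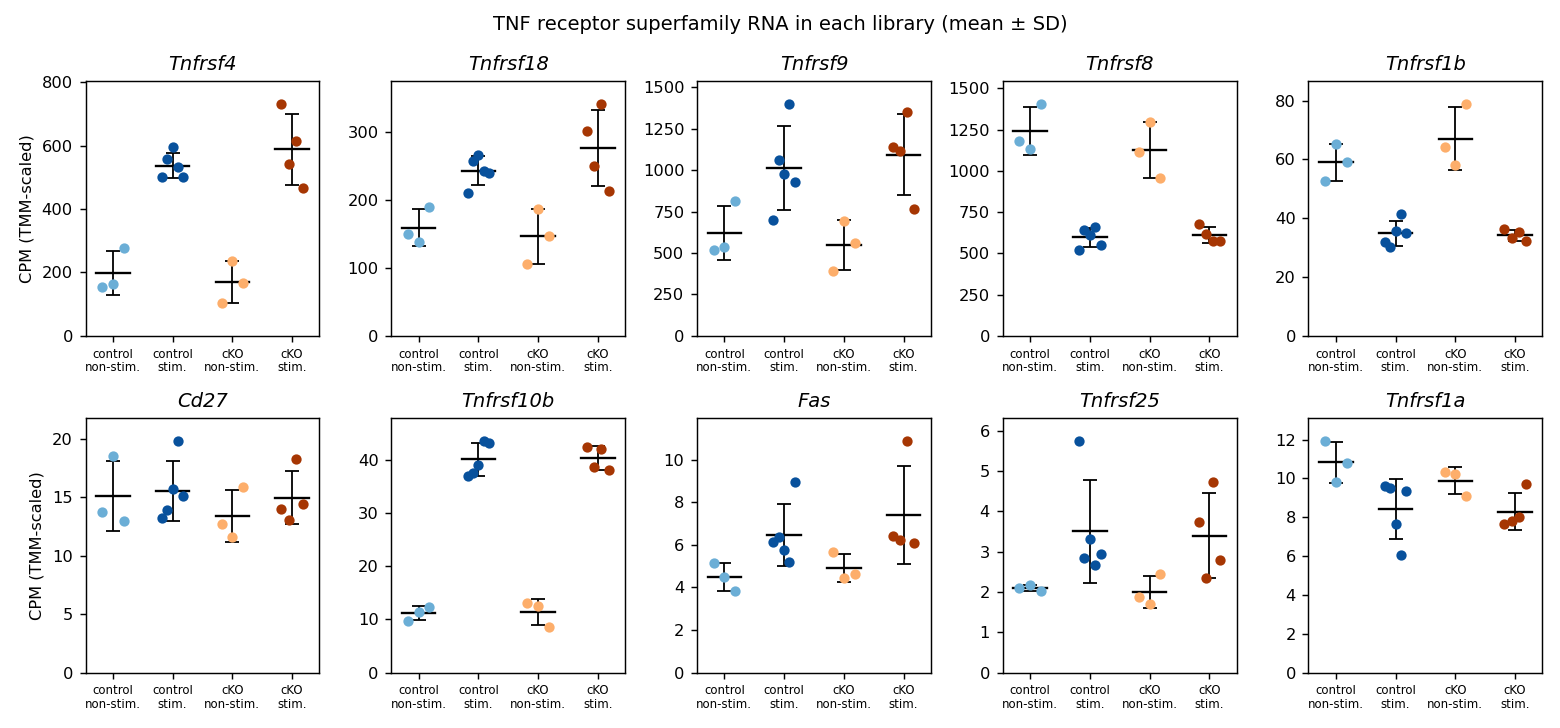
RNA of each receptor in each library, in CPM on scaled library sizes (axes start at 0). Points are libraries, horizontal lines group means and bars SD, with n = 3, 5, 3 and 4 libraries from left to right. Tnfrsf4, Tnfrsf18 and Tnfrsf10b are higher and Tnfrsf8 and Tnfrsf1b lower in all 9 stimulated libraries than in all 6 non-stimulated ones.

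Tnfrsf4 encodes OX40, which sustains the survival of activated CD4 T cells when it binds its ligand. It stood at 154, 162 and 278 CPM in the 3 non-stimulated control libraries and at 502, 557, 595, 532 and 500 CPM in the 5 stimulated ones. The cKO libraries gave 105, 237 and 166 CPM without stimulation and 731, 543, 613 and 468 CPM with it. Every stimulated library thus lay above every non-stimulated library of either genotype. Tnfrsf4 rose 2.71-fold in control cells (95% confidence interval 1.86 to 3.94, log2 fold change 1.44 ± 0.25 SE, adjusted p = 2.76e-04). In cKO cells it rose 3.47-fold (2.35 to 5.14, log2 fold change 1.80 ± 0.26 SE, adjusted p = 5.59e-05).

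Tnfrsf18, the gene next to Tnfrsf4, encodes GITR, a co-stimulatory receptor abundant on regulatory T cells and acquired by activated effector cells. Its values were 150, 138 and 190 CPM in non-stimulated and 210, 258, 266, 243 and 239 CPM in stimulated control libraries. In cKO libraries they were 106, 187 and 147 CPM without stimulation and 302, 250, 341 and 214 CPM with it. The groups did not overlap in either genotype, though the highest non-stimulated and the lowest stimulated control values were close. Tnfrsf18 rose by a log2 fold change of 0.61 ± 0.17 SE in control (adjusted p = 0.00786) and 0.91 ± 0.18 SE in cKO cells (adjusted p = 5.14e-04). The neighbours Tnfrsf4 and Tnfrsf18 rose together, and the neighbours Tnfrsf1b and Tnfrsf8 fell together. Among pairs of adjacent genes that were both called, 61.4% moved the same way in control cells (1671 of 2721) and 62.0% in cKO cells (1769 of 2855). An unstranded count of Tnfrsf18 would include the antisense gene Gm16008, which had 0.347 to 1.68 CPM.

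Tnfrsf9 encodes 4-1BB (CD137), an activation-induced receptor that promotes T cell expansion. It was among the most abundant receptors, with 519, 535 and 812 CPM in non-stimulated and 702, 1062, 978, 1398 and 931 CPM in stimulated control libraries. In cKO libraries it had 393, 695 and 562 CPM without and 1138, 1115, 1353 and 765 CPM with stimulation. The control groups overlapped, because non-stimulated replicate 3 lay above stimulated replicate 1, whereas the cKO groups did not. Tnfrsf9 rose by a log2 fold change of 0.71 ± 0.25 SE in control (adjusted p = 0.0274) and 0.99 ± 0.26 SE in cKO cells (adjusted p = 0.00487). The control call was lost without non-stimulated control replicate 1 (0.59, adjusted p = 0.110) or 2 (0.61, adjusted p = 0.109), without stimulated control replicate 4 (0.56, adjusted p = 0.0564) and with no filter on low counts (0.71, adjusted p = 0.0734). An exact two-sided permutation test of the control values gave p = 0.0536, where 0.0179 is the smallest this design allows, and that of the cKO values p = 0.0571, where 0.0286 is the smallest.

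Tnfrsf8 encodes CD30, a receptor long associated with activated T cells and with Th2-type cultures. Its RNA was at 1183, 1132 and 1405 CPM in non-stimulated and 522, 639, 612, 659 and 553 CPM in stimulated control libraries. The cKO libraries gave 1117, 1299 and 959 CPM without stimulation and 677, 619, 578 and 576 CPM with it. All 9 stimulated libraries lay below all 6 non-stimulated ones. Tnfrsf8 fell by 1.05 ± 0.11 SE on the log2 scale in control cells (adjusted p = 4.09e-07), which is 2.08-fold, and by 0.88 ± 0.12 SE in cKO cells (adjusted p = 6.53e-06). It was thus the abundant co-stimulatory receptor that went against Tnfrsf4, Tnfrsf9 and Tnfrsf18.

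Tnfrsf1b encodes TNFR2, the TNF receptor without a death domain, which binds membrane-bound TNF best. It had 52.6, 65.3 and 59.3 CPM in non-stimulated and 31.8, 30.3, 35.8, 41.3 and 35.1 CPM in stimulated control libraries. In cKO libraries it had 64.2, 58.0 and 78.8 CPM without and 36.3, 33.4, 35.3 and 32.1 CPM with stimulation. No stimulated library reached a non-stimulated one. Tnfrsf1b fell by 0.76 ± 0.11 SE on the log2 scale in control (adjusted p = 2.1e-05) and by 0.97 ± 0.12 SE in cKO cells (adjusted p = 2.61e-06).

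Cd27, a receptor of naive and memory T cells, was the member nearest to 0 in both responses. Its CPM lay between 12.98 and 18.5 in non-stimulated and 13.2 and 19.8 in stimulated control libraries, and between 11.6 and 15.8 and 13.1 and 18.2 in the cKO ones. The groups overlapped in both genotypes, and the log2 fold changes were 0.04 (95% confidence interval -0.29 to 0.38, adjusted p = 0.842) in control and 0.15 (-0.20 to 0.51, adjusted p = 0.454) in cKO cells. The gene overlaps Vamp1 on the opposite strand, which had 33.5 to 44.6 CPM in non-stimulated and 24.3 to 33.3 CPM in stimulated libraries. Whether the counting used strand is not stated in the sources used here, so the level of Cd27 is uncertain by that overlap. Tnfrsf9 overlaps Camta1 in the same way, at 9.77 to 13.3 CPM.

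**Figure D2:**
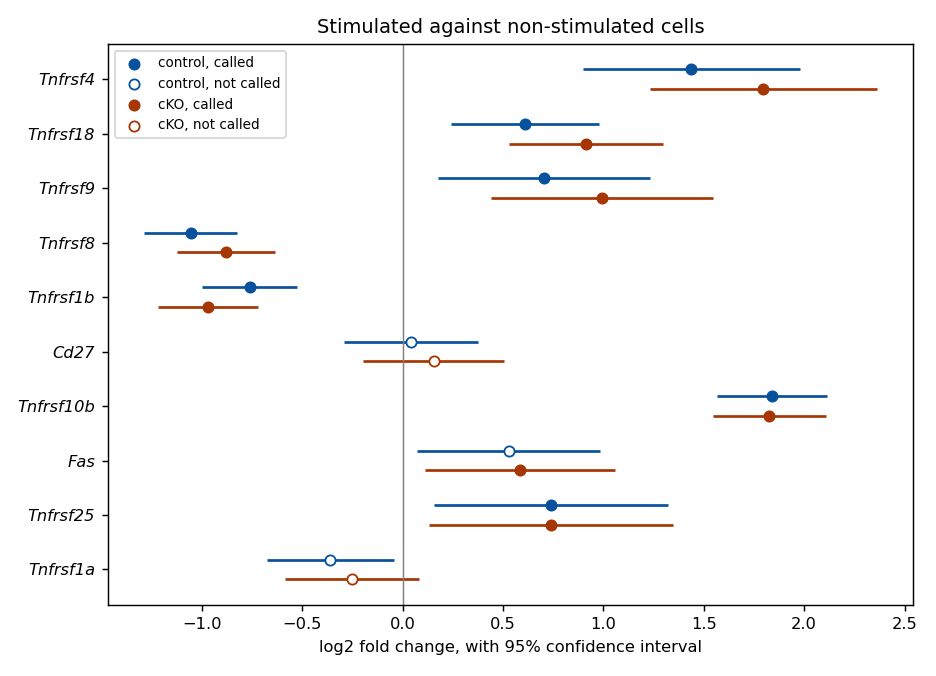
Log2 fold change of each receptor, stimulated against non-stimulated cells, with its 95% confidence interval, in control (blue) and cKO (red) cells. Filled points were called and open points were not: Tnfrsf10b and Tnfrsf4 lie farthest to the right, at 1.84 and 1.44 in control cells, and Tnfrsf8 and Tnfrsf1b to the left, at -1.05 and -0.76.

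Among the 4 death-domain receptors, Tnfrsf10b changed most. It encodes the mouse receptor for TRAIL, which can start apoptosis through FADD. Tnfrsf10b had 9.74, 11.4 and 12.4 CPM in non-stimulated and 37.0, 37.7, 39.0, 43.6 and 43.3 CPM in stimulated control libraries. The cKO libraries gave 13.03, 12.6 and 8.57 CPM without stimulation and 42.5, 38.6, 42.0 and 38.1 CPM with it. Stimulated libraries of both genotypes lay within 37.0 to 43.6 CPM, far above the non-stimulated ones. Tnfrsf10b rose 3.58-fold in control (95% confidence interval 2.96 to 4.33, log2 fold change 1.84 ± 0.13 SE, adjusted p = 4.73e-09) and 3.54-fold in cKO cells (2.92 to 4.31, log2 fold change 1.83 ± 0.13 SE, adjusted p = 8.03e-09). Its log2 fold change in control cells was the largest of the 10 receptors.

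Fas, the receptor for Fas ligand that mediates activation-induced death of T cells, was low. It had 5.14, 4.50 and 3.85 CPM in non-stimulated and 6.12, 6.38, 5.75, 5.19 and 8.96 CPM in stimulated control libraries. In cKO libraries it had 5.65, 4.43 and 4.63 CPM without and 6.42, 6.23, 10.9 and 6.08 CPM with stimulation. Within each genotype the stimulated libraries lay above the non-stimulated ones, by a narrow margin in control cells. The log2 fold change was 0.53 ± 0.22 SE in control, which missed the threshold (adjusted p = 0.0512), and 0.58 ± 0.22 SE in cKO cells, where Fas rose (adjusted p = 0.0354). Exact two-sided permutation tests gave p = 0.0357 in control and 0.0571 in cKO cells. With stimulated cKO replicate 3 left out, which had the highest mitochondrial share, the cKO value was 0.36 and was not called (adjusted p = 0.138). The control value was called by DESeq2 (0.53, adjusted p = 0.0396), and the cKO call was also lost without non-stimulated cKO replicate 2 (0.52, adjusted p = 0.108) or 3 (0.55, adjusted p = 0.0994).

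Tnfrsf25 encodes DR3, whose ligand TL1A co-stimulates T cells. It was the least abundant member, with 2.09, 2.17 and 2.03 CPM in non-stimulated and 5.74, 2.83, 3.30, 2.68 and 2.95 CPM in stimulated control libraries. In cKO libraries it had 1.88, 1.69 and 2.45 CPM without and 3.74, 2.34, 4.72 and 2.80 CPM with stimulation, and these groups overlapped. The smallest count behind these values was 32 reads, in non-stimulated cKO replicate 2, whose exact Poisson 95% interval of 21.9 to 45.2 reads corresponds to 1.16 to 2.38 CPM; it covers counting error only. Tnfrsf25 rose by a log2 fold change of 0.74 ± 0.28 SE in control (adjusted p = 0.0336) and 0.74 ± 0.29 SE in cKO cells (adjusted p = 0.0382). Exact two-sided permutation tests gave p = 0.0536 in control and 0.0857 in cKO cells. Without stimulated control replicate 1 the control value was 0.50 (adjusted p = 0.0918), and it was also not called without non-stimulated control replicate 1, 2 or 3 (adjusted p = 0.0804, 0.0718 and 0.0844). The cKO call was lost without stimulated cKO replicate 3 (0.56, adjusted p = 0.118) or 1 (adjusted p = 0.0769) and without non-stimulated cKO replicate 1 (adjusted p = 0.101) or 2 (adjusted p = 0.124).

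Tnfrsf1a encodes TNFR1, which signals through TRADD and binds soluble TNF. Its CPM lay between 9.82 and 11.9 in non-stimulated and 6.08 and 9.63 in stimulated control libraries, and between 9.07 and 10.3 and 7.63 and 9.73 in the cKO ones. The control groups did not overlap and the cKO groups did. The log2 fold change was -0.36 ± 0.15 SE in control (adjusted p = 0.0544) and -0.25 ± 0.16 SE in cKO cells (adjusted p = 0.190), and neither was called. DESeq2 called the control value (-0.36, adjusted p = 0.0410). The 2 TNF receptors thus had negative values in both genotypes, and of the 2 Tnfrsf1b passed the test.

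The order of the receptors by level, compared in TPM, which is scaled for transcript length, differed between the conditions. In non-stimulated control cells the mean TPM was 376 ± 90.2 (SD, n = 3) for Tnfrsf9, 346 ± 28.5 for Tnfrsf8, 236 ± 71.9 for Tnfrsf4 and 157 ± 18.3 for Tnfrsf18. The other 6 had between 1.52 TPM (Tnfrsf25) and 14.7 TPM (Tnfrsf1b). Tnfrsf9 and Tnfrsf8 did not differ beyond their spread there, with Tnfrsf9 above in 4 of 6 non-stimulated libraries of either genotype, and neither did Tnfrsf10b and Fas, at 3.50 and 3.45 TPM. In stimulated control cells Tnfrsf9 had 736 ± 206 TPM (SD, n = 5), Tnfrsf4 696 ± 57.1, Tnfrsf18 266 ± 33.6 and Tnfrsf8 185 ± 27.3. Tnfrsf9 and Tnfrsf4 were then inseparable, with Tnfrsf9 above in 5 of 9 stimulated libraries. Tnfrsf10b had 14.0 TPM, beside 13.8 for Cd27, 9.59 for Tnfrsf1b, 5.95 for Fas, 4.46 for Tnfrsf1a and 2.76 for Tnfrsf25; Tnfrsf10b and Cd27 did not separate there (Tnfrsf10b above in 7 of 9 libraries).

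Several pairs changed places in every library. Tnfrsf8 lay above Tnfrsf4 and above Tnfrsf18 in TPM in 6 of 6 non-stimulated libraries and in 0 of 9 stimulated ones. Tnfrsf1b lay above Tnfrsf10b in 6 of 6 and 0 of 9, and Tnfrsf1a above Fas likewise. Tnfrsf8 made up 30.2% of the summed TPM of the 10 receptors in non-stimulated control cells and 9.58% in stimulated ones, with 30.6% and 9.28% in cKO cells. Tnfrsf4 took 20.1% and 36.4% in control and 19.2% and 36.7% in cKO cells. Tnfrsf18 kept a nearly even share, between 13.7% and 14.4% as a mean in all 4 groups. The 10 receptors summed to 1156 ± 206 TPM in non-stimulated and 1934 ± 327 TPM in stimulated control libraries, and to 1168 ± 255 and 1956 ± 247 TPM in cKO libraries. In CPM, which is not scaled for length, the sums overlapped between the conditions: 2079 to 2786 without and 2040 to 2951 with stimulation in control, and 1829 to 2517 and 2126 to 3004 in cKO libraries. In TPM, the 4 death-domain receptors together were 1.22% and 1.43% of the summed receptors in control and 1.40% and 1.39% in cKO cells.

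**Figure D3:**
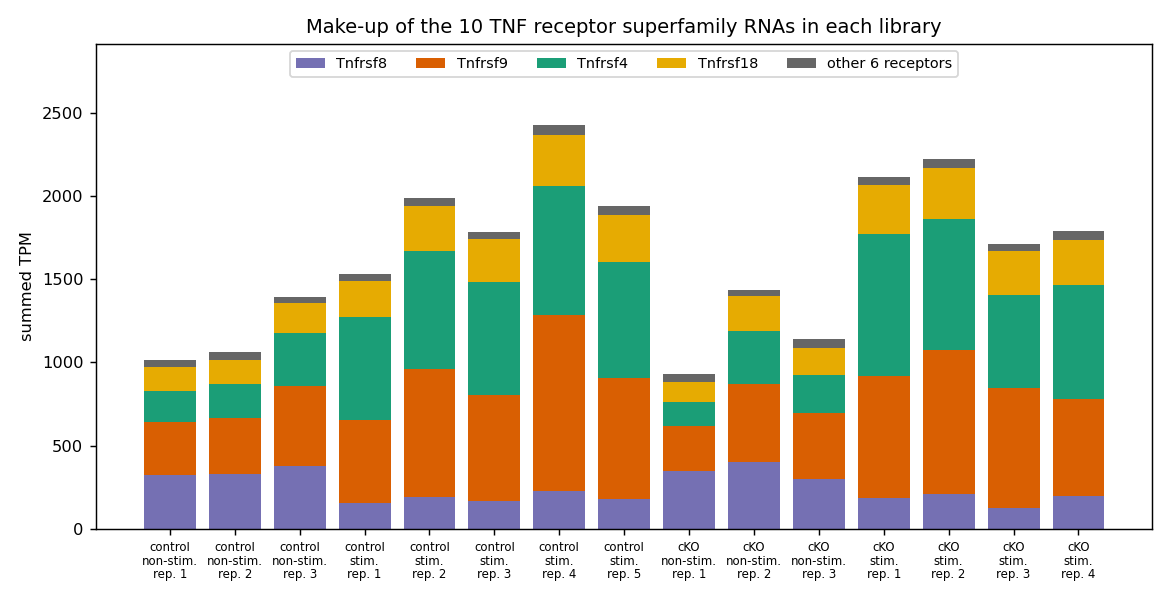
Summed TPM of the 10 receptors in each of the 15 libraries, split into Tnfrsf8, Tnfrsf9, Tnfrsf4, Tnfrsf18 and the other 6 together. The Tnfrsf8 part is smaller and the Tnfrsf4 part larger in every stimulated library, and the other 6 receptors are a thin band at the top of each bar.

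Non-stimulated libraries of a group differed from each other in the abundant receptors. Tnfrsf4, Tnfrsf8, Tnfrsf9 and Tnfrsf18 were each highest in replicate 3 among the control libraries and in replicate 2 among the cKO libraries. For Tnfrsf9 these 2 libraries had 812 and 695 CPM, and for Tnfrsf4 278 and 237 CPM. Non-stimulated cKO replicate 1 had the lowest Tnfrsf4, Tnfrsf9 and Tnfrsf18 of all 15 libraries. Tnfrsf1b and Cd27 did not share that order: Tnfrsf1b was highest in replicate 2 of the control and replicate 3 of the cKO libraries.

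Ligands of the 10 receptors moved mostly upward. Of 10 ligand genes 8 were tested; 7 rose and none fell in control cells, and 6 rose and none fell in cKO cells (median log2 fold changes 1.59 and 1.87), where 25.4% and 26.7% of all genes tested rose. Tnfsf8, which encodes the CD30 ligand, went from 61.2 ± 4.47 to 901 ± 65.9 CPM in control cells (log2 fold change 3.88 ± 0.15 SE, adjusted p = 5.31e-12) and from 54.6 ± 13.7 to 998 ± 31.0 CPM in cKO cells, while its receptor Tnfrsf8 fell. Tnf, the ligand of Tnfrsf1a and Tnfrsf1b, rose from 8.74 to 44.0 CPM in control cells (2.32 ± 0.17 SE, adjusted p = 7.9e-09), where Tnfrsf1b fell. Tnfsf15, the DR3 ligand TL1A, rose from 0.149 to 3.30 CPM (4.43 ± 0.51 SE, adjusted p = 1.26e-06), on 9 counts in the non-stimulated control libraries together. In cKO cells it went from 0.401 to 3.38 CPM. At these levels it needed the stimulated libraries to pass the filter on low counts. Its rise is counted in the 7 and the 6 and enters the medians, but it adds no support to them. The exception in control cells, named after its values were seen, was Tnfsf10, the ligand of Tnfrsf10b. It was at 92.5 and 88.1 CPM there (log2 fold change -0.07, adjusted p = 0.773) beside the 3.58-fold rise of its receptor. In cKO cells the edgeR test called neither Tnfsf10 (-0.11, adjusted p = 0.637) nor Tnfsf9, the ligand of Tnfrsf9 (0.68, adjusted p = 0.0670). The ligands of Cd27 and Tnfrsf18 were too low to test: Cd70 had no count without stimulation, which allows up to 0.0491 CPM over the control libraries, and 12 counts in the 5 stimulated control libraries, and Tnfsf18 had a count of 1 in the stimulated control libraries and none elsewhere.

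Adaptors that link the receptors to NF-kappaB or to caspases changed in both directions. Of 14 tested, 7 rose and 4 fell in control cells, and 7 rose and 3 fell in cKO cells. Of all genes tested 25.4% rose and 25.2% fell in control cells and 26.7% and 27.1% in cKO cells, so the counts that fell, 4 and 3 of 14, are near the background. Cflar, which encodes the caspase 8 inhibitor c-FLIP, rose by 1.58 ± 0.09 SE on the log2 scale in control cells (adjusted p = 5.08e-10), Traf4 by 1.86 ± 0.14 SE (adjusted p = 7.37e-09) and Traf1, an adaptor induced by NF-kappaB, by 1.77 ± 0.13 SE (adjusted p = 9.47e-09). The 4 that fell in control cells, named after their values were seen, were Tradd (-0.79), Ripk1 (-0.48), Map3k14 (-0.33) and Fadd (-0.32), which encode the proximal partners of death domains and the NF-kappaB-inducing kinase. Fadd was not called in cKO cells (-0.13, adjusted p = 0.323).

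NF-kappaB factors and their inhibitors mostly rose, 9 of 10 in each genotype (median log2 fold changes 1.58 in control and 1.88 in cKO cells), where 25.4% and 26.7% of all genes tested rose. Tnfaip3, the inhibitor A20, rose by 1.97 ± 0.14 SE on the log2 scale in control cells (adjusted p = 6.96e-09), Nfkbia, the inhibitor IκBα, by 2.47 ± 0.18 SE (adjusted p = 2.07e-08) and Nfkbib by 1.89 ± 0.15 SE (adjusted p = 2.44e-08). The deubiquitinase gene Cyld, chosen after its values were seen, fell in control cells (-0.22, adjusted p = 0.0455) and was not called in cKO cells (-0.14, adjusted p = 0.214).

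The other receptors of the superfamily went in both directions. Of 18 listed, 13 were tested; 1 rose and 3 fell in control cells, and 1 rose and 2 fell in cKO cells (median log2 fold changes 0.059 and 0.11), where 50.6% and 53.8% of all genes tested were called. Eda2r, the receptor for ectodysplasin A2, rose from 0.643 to 3.47 CPM in control cells (2.43 ± 0.25 SE, adjusted p = 4.61e-07). Tnfrsf26 fell from 32.02 to 15.7 CPM (-1.03 ± 0.18 SE, adjusted p = 1.12e-04), and Tnfrsf11a, which encodes RANK, from 1.53 to 0.279 CPM (-2.43 ± 0.52 SE, adjusted p = 7.78e-04). Tnfrsf11a may have passed the filter on low counts through the non-stimulated libraries alone, and a fall was then the only call open to it. The third gene lower in control cells, Tnfrsf13b, fell by 0.25 on the log2 scale (adjusted p = 0.0390).

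**Figure D4:**
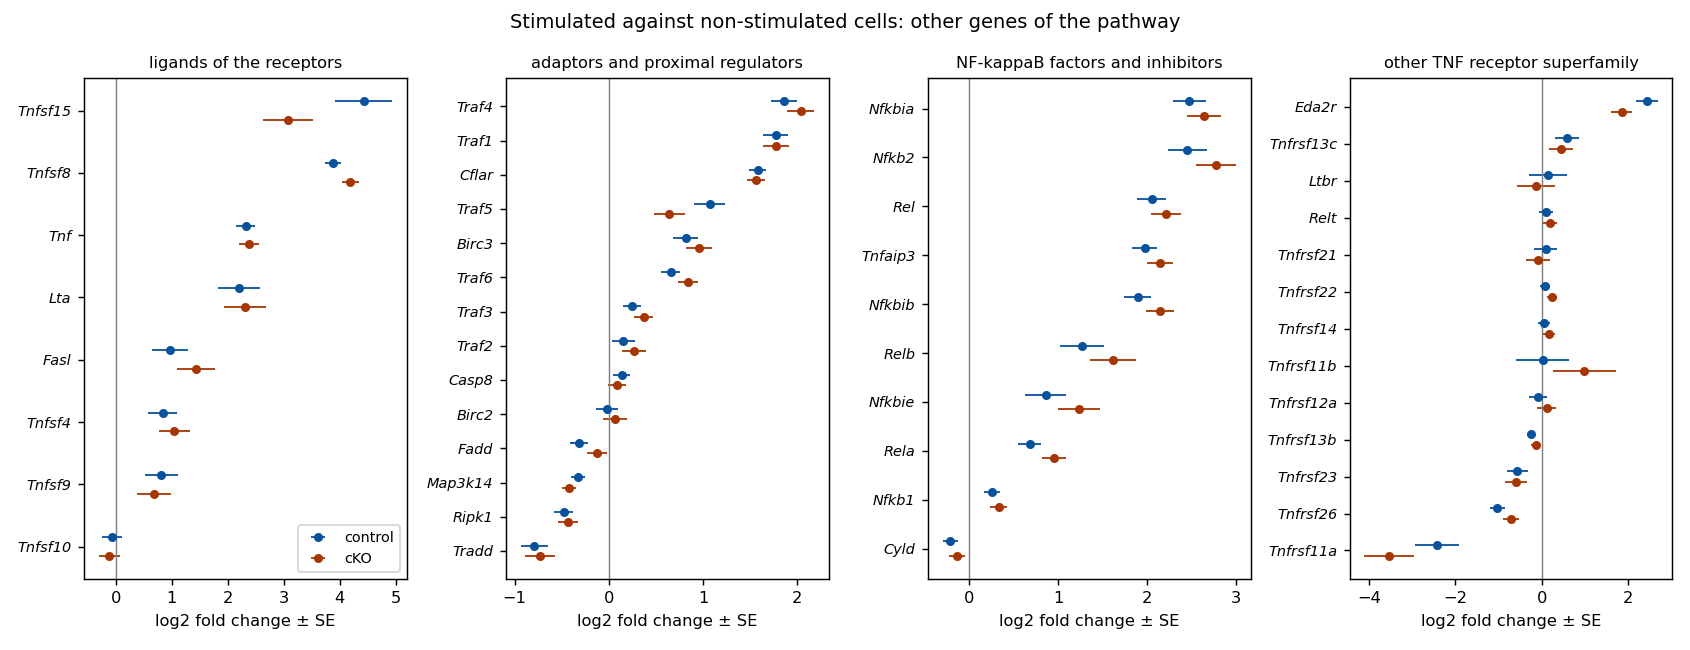
Log2 fold change ± SE, stimulated against non-stimulated cells, for tested ligands, adaptors, NF-kappaB genes and other receptors of the superfamily, in control (blue) and cKO (red) cells. Ligands and NF-kappaB genes lie mostly to the right of 0, with Tnfsf15 at 4.43 and Tnfsf8 at 3.88 in control cells, and adaptors and other receptors on both sides. Tnfsf15 needed its stimulated libraries to pass the filter on low counts.

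Markers of T cell states and of other cell types also moved with stimulation. Of all genes tested 25.4% rose and 25.2% fell in control cells, and 26.7% and 27.1% in cKO cells. These shares are of genes tested, and several marker lists had few genes tested. Where a list was low in stimulated libraries, its tested genes may have passed the filter on low counts through the non-stimulated libraries alone. A fall was then the only call open to them, so the macrophage, natural killer and mast cell falls do not count as support. Of 6 CD4 T genes 4 fell in each genotype, and of 6 Th2 genes 4 rose in each genotype and 1 fell in control cells. Of the 6 regulatory T genes 3 rose and 1 fell in each genotype; their summed level was 3763 to 4750 CPM in non-stimulated and 4879 to 8905 CPM in stimulated libraries, while Foxp3 was at or under 2.16 CPM in each library. Of 5 macrophage and monocyte markers 2 were tested, and 2 fell in each genotype. The sum of the 5 went from 10.4 to 20.1 CPM to 0.484 to 2.24 CPM, with Lyz2 at 0 in all groups. Natural killer markers went from 5.14 to 23.5 CPM in sum to 1.02 to 5.31 CPM. Of the 4 listed 2 were tested, and 2 fell in control and 1 in cKO cells. Ncr1 was at 0 in stimulated control and Klra8 in stimulated cKO libraries. Mast cell and basophil markers went from 3.00 to 13.9 CPM to 0.0578 to 1.15 CPM. Of the 4 listed 1 was tested, and it fell in each genotype, while Mcpt4 was at 0 in 3 of the groups. Endothelial markers went from 165 to 197 CPM to 44.4 to 77.2 CPM. Of the 4 listed 1 was tested, Pecam1, which T cells also carry, and it fell in each genotype. Cdh5 and Tek were at 0 in stimulated libraries. Dendritic markers went from 3.11 to 6.10 CPM to 5.10 to 8.20 CPM, and of 3 tested 2 rose and 1 fell. Of the B markers 3 of 4 were tested and of the CD8 T markers 2 of 2, and none was called. The part of these cells in the receptors' changes was not tested.

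By likeness of pattern, each receptor was set beside the genes tested whose log2 CPM, centred on its mean over the 15 libraries, differed from its own by the smallest root mean square, leaving out the listed genes and names that are clone identifiers. Tnfrsf4 was closest to Csrnp1 (0.21) and Tg (0.22), against an SD of 0.91 for Tnfrsf4 itself. Tnfrsf8 was closest to Lpxn (0.10) and Cenpn (0.11), Tnfrsf9 to Ccr8 (0.16) and Crem (0.17), and Tnfrsf18 to Cd2 (0.11) and Stk3 (0.14). Tnfrsf1b was closest to Parp14 and Tln1 (both 0.12), and Cd27 to Zfp873 and Mpv17 (both 0.12). Of the death-domain receptors, Tnfrsf10b was closest to Ccnd2 and Ripk2 (both 0.17), Fas to Cdkl2 (0.16) and Rida (0.17), Tnfrsf25 to Ndufa12 and Tomm5 (both 0.19) and Tnfrsf1a to Tex261 (0.13) and Pip4k2b (0.14). The receptors' own SDs were 0.94 for Tnfrsf10b, 0.54 for Tnfrsf9, 0.51 for Tnfrsf8, 0.47 for Tnfrsf25 and 0.46 for Tnfrsf18 and Tnfrsf1b. They were 0.38 for Fas, 0.24 for Tnfrsf1a and 0.22 for Cd27. Next to these SDs, Cd27 and Tnfrsf1a were matched less closely than Tnfrsf4. The 15 libraries are shared by all these patterns, and the stimulation contrast makes up most of them for the receptors that moved.

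The cKO and control genotypes were compared within each condition. These libraries do not measure ASB2 protein, and Asb2 RNA was lower but not absent in cKO libraries, at 19.2 CPM without and 9.49 CPM with stimulation. None of the 10 receptors was called between cKO and control cells without stimulation (0 of 10, where 0% of all genes were called) or with it (0 of 10, where 0.0064% were called, which is Asb2 alone). At an unadjusted p under 0.05 the edgeR test gave 0 of 10 in each condition, against 2.57% and 1.81% of all genes, and DESeq2 also called 0 of 10. The CPM of cKO and control libraries overlapped for all 10 receptors in both conditions, whereas 7.86% and 0.659% of all genes did not overlap. Without stimulation the value farthest from 0 was that of Tnfrsf4, at 169 ± 66.4 CPM in cKO and 198 ± 69.4 CPM in control cells (log2 fold change -0.23, 95% confidence interval -0.80 to 0.34). With stimulation it was that of Tnfrsf18, at 277 ± 56.1 and 243 ± 21.5 CPM (0.19, -0.14 to 0.52), level with Fas (0.19, -0.22 to 0.59). Without stimulated cKO replicate 3 the values became 0.064 for Tnfrsf18 and -0.057 for Fas. For Tnfrsf10b, whose values lay closest to 0, the intervals were -0.28 to 0.32 without and -0.22 to 0.23 with stimulation, and for Tnfrsf8 -0.40 to 0.12 and -0.18 to 0.25. Over the 10 receptors the intervals reached from -0.80 to 0.64 without and from -0.57 to 0.60 with stimulation; these are the extremes, and each receptor has its own, narrower interval.

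**Figure D5:**
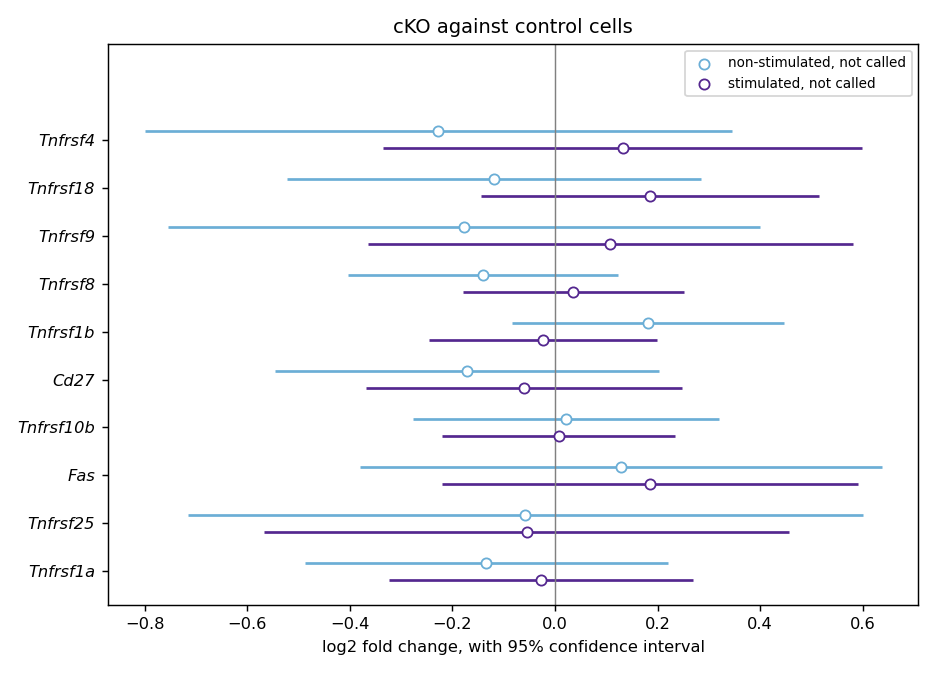
Log2 fold change of each receptor, cKO against control cells, with its 95% confidence interval, without stimulation (light blue) and with it (purple). All points are open because none was called, and every interval includes 0; the widest belong to Tnfrsf4, Tnfrsf9 and Tnfrsf25.

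The response to stimulation was also compared between the genotypes, as the cKO response minus the control response (interaction). Again 0 of 10 receptors were called, as were 0% of all genes, and 0 of 10 had an unadjusted p under 0.05 in the edgeR test, against 3.87% of all genes; DESeq2 called 0 of 10. The largest difference was that of Tnfrsf4, whose log2 response was 1.80 in cKO and 1.44 in control cells (difference 0.36, 95% confidence interval -0.38 to 1.099). Tnfrsf18 followed with 0.30 (-0.22 to 0.83) and Tnfrsf9 with 0.29 (-0.46 to 1.03), while Tnfrsf1b had -0.21 (-0.55 to 0.14) and Tnfrsf10b -0.015 (-0.39 to 0.36). Without stimulated cKO replicate 3 the differences were 0.34 for Tnfrsf4, 0.19 for Tnfrsf18 and 0.17 for Tnfrsf9. The call of Fas in cKO and not in control cells was not matched by a call in this test of the difference (0.057, -0.59 to 0.71, adjusted p = 1.00). None of the listed ligands, adaptors, NF-kappaB genes or other receptors was called in any genotype comparison or in the interaction.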

How the data were processed

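Total RNA depleted of ribosomal RNA was sequenced with a stranded kit, per the labels' protocols. The authors deposited an estimated count and a TPM value for each gene and library; per the submitters' processing notes the genome was GRCm39 and the tools were Salmon 1.10.1, STAR 2.7.9a and cutadapt 3.4, with no role given for each. Whether counting used strand is not given in the sources used here.

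From the estimated counts deposited by the authors, rounded to whole numbers, genes were kept with filterByExpr, scaled by TMM and fitted with edgeR 4.0.16 (R 4.3.3) by a robust quasi-likelihood model with 1 mean per group over all 15 libraries. Of 56748 genes 15619 were tested in 5 two-sided comparisons; a gene was called at a Benjamini-Hochberg adjusted p under 0.05. SE and 95% intervals come from that model. CPM per library use the scaled library sizes. Levels between genes were compared as the TPM the authors deposited. Totals were 17.1 to 24.2 M counts; the Poisson interval given for a count covers counting error only. Alternatives were DESeq2 1.42.0, other scaling and filters, the compared groups alone, replicate blocks, limma 3.58.1 on log2 TPM plus 0.1 or plus 1, and leaving out each library.

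The receptors and gene lists were chosen with earlier results of these data known. The naming rule takes all 10 receptors, Asb2, the 3 genes of each list with the smallest p on stimulation in control cells, any listed gene called between genotypes, and the 2 genes most like each receptor in log2 CPM (prior count 2). Cell type markers and other genes named were chosen beside it. Promoter windows and neighbours come from RefSeq and GENCODE of build GRCm38, used for names, order and sequence; coordinates in GRCm39 are not used here.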

Additional observations from a re-analysis of the deposited data

Results flagged for a closer look

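In the 20 groups of 4 or 5 stimulated libraries that could be tested for a single library apart from the rest, 2 were marked, beside about 1 in 20 by chance. Tnfrsf25 was at 5.74 CPM in stimulated control replicate 1, where the other 4 libraries had 2.68 to 3.30 CPM; the gap to the nearest was 0.797 of the range, above Dixon's 95% critical value for 5 samples. Fas was at 10.9 CPM in stimulated cKO replicate 3, where the other 3 had 6.08 to 6.42 CPM (gap 0.929 of the range, above the value for 4 samples). That library also had 9.43% mitochondrially encoded counts, the highest of the 15; the part of this in the Fas value was not tested.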

How the results depend on the processing

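On stimulation, Tnfrsf4, Tnfrsf8, Tnfrsf18, Tnfrsf1b and Tnfrsf10b kept their direction and call in both genotypes under every alternative run. With all libraries, the receptors called ranged from 6 (replicate block) to 9 (DESeq2) in control and from 7 (log2 TPM plus 0.1 or 1) to 8 in cKO cells. The changes were in Tnfrsf9, Tnfrsf25, Fas and Tnfrsf1a. Beyond those given above, Fas in control cells was called with no filter (adjusted p = 0.0473), the compared groups alone (0.0416), log2 TPM plus 0.1 (0.0128) or 1 (0.0153) and without stimulated control replicate 3 (0.0437) or 4 (0.0339); in cKO cells its call was lost on log2 TPM plus 0.1 (0.0940) or 1 (0.0952). Tnfrsf1a in control cells was called with a filter of 1 CPM in 3 libraries (0.0469) and without stimulated control replicate 1 (0.0454) or 5 (0.0488).

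Replicate numbers were not used as pairs in the main fit. Of 19 same-numbered pairs, 3 had deviations from their group means correlated above 0.1 (range -0.20 to 0.18), and 7 correlated best with their own number. These correlations cannot show whether same-numbered libraries share a mouse or culture, which the sources used here do not give. With the replicate block, 6 receptors were called in control and 8 in cKO cells, Tnfrsf9 in control cells not being called (0.72, adjusted p = 0.0520). Cd27 on stimulation in control cells became -0.020 with the replicate block and -0.068 with the block within genotype. The block turned Tnfrsf1a in stimulated cKO against control cells to 0.023 and, in the interaction, Tnfrsf25 to -0.021 and Tnfrsf10b to 0.019; within genotype it gave Tnfrsf25 -0.045, Tnfrsf1a -0.054 and Tnfrsf10b 0.10.

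No receptor was called between genotypes or in the interaction under any alternative, and all sign changes below are of values not called; the cause was not tested. On the log2 TPM scale, whose median over all genes was 0.14 for stimulation in control cells (3770 higher and 2101 lower, against 3961 and 3936 in the counts), -0.094 for stimulation in cKO cells (2599 higher and 3420 lower, against 4171 and 4227), 0.15 for the non-stimulated genotype comparison and -0.21 for the interaction, signs turned as follows, for plus 0.1 and plus 1. Without stimulation: Tnfrsf8 0.0095 and 0.0095, Tnfrsf18 0.016 and 0.016, Tnfrsf25 0.14 and 0.098, Tnfrsf1a 0.020 and 0.017, Cd27 0.0097 and 0.0084. With stimulation: Tnfrsf8 -0.037 and -0.036, Tnfrsf25 0.18 and 0.13, Tnfrsf10b -0.076 and -0.071. Interaction: Tnfrsf8 -0.046 and -0.046, Tnfrsf1a -0.14 and -0.11, Cd27 -0.11 and -0.099, Fas -0.24 and -0.19.

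Leaving out single libraries moved values across 0 within these ranges. On stimulation in control cells, Cd27 -0.058 to 0.22. Between genotypes without stimulation, Tnfrsf4 -0.55 to 0.097, Tnfrsf9 -0.38 to 0.061, Tnfrsf18 -0.33 to 0.067, Tnfrsf25 -0.23 to 0.049, Tnfrsf10b -0.088 to 0.19, Cd27 -0.31 to 0.00087. With stimulation, Tnfrsf8 -0.016 to 0.074, Tnfrsf9 -0.016 to 0.25, Tnfrsf25 -0.25 to 0.20, Tnfrsf1a -0.12 to 0.030, Tnfrsf1b -0.062 to 0.045, Tnfrsf10b -0.019 to 0.040, Cd27 -0.17 to 0.042, Fas -0.057 to 0.33. In the interaction, Tnfrsf25 -0.19 to 0.26, Tnfrsf10b -0.19 to 0.095, Cd27 -0.061 to 0.25, Fas -0.18 to 0.20.

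Over all genes, calls between genotypes without stimulation were 0, and 4 with DESeq2, 1 with no filter, 3 on log2 TPM plus 1 and 0 to 1 with single libraries left out (1 without non-stimulated control replicate 3). With stimulation they were 1, and 5 with DESeq2; in the interaction 0, and 2 with DESeq2, 1 with the block within genotype and 1 on log2 TPM plus 1. The smallest count of a receptor in a library was 32, for Tnfrsf25.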

Other observations

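Il13, which encodes a hallmark Th2 cytokine and was chosen after its values were seen, had the same highest libraries as the abundant receptors among the non-stimulated cells. It was at 26.8, 12.1 and 40.6 CPM in control replicates 1 to 3 and at 11.2, 27.5 and 17.4 CPM in cKO replicates 1 to 3, so that control replicate 3 and cKO replicate 2 were highest, as for Tnfrsf4, Tnfrsf8, Tnfrsf9 and Tnfrsf18. Asb2 was also highest in these 2 libraries within their groups, at 49.7 and 22.7 CPM, though cKO replicate 3 was nearly level at 22.1 CPM. Whether these levels are related was not tested.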
